A study of Drosophila melanogaster with 2 samples.

Results

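The glutathione transferase genes of Drosophila melanogaster were taken as the protein-coding genes whose symbol in the Ensembl gene models begins with GstD, GstE, GstO, GstS, GstT or GstZ. The rule gave 35 of the 13945 protein-coding genes on the chromosome arms. It used no measured value. Binding of Jra was measured at them by ChIP-seq in 1 group of 2 biological replicates, labelled 1 and 3. Both came from whole animals at the wandering stage of the third larval instar, with the sexes mixed. They carried a transgene that stably expresses Jra fused at its C terminus to GFP, and chromatin was pulled down with an antibody to GFP. There was no other genotype, treatment or time, so the results compare genes within these larvae. The promoter that drives the transgene is not given in the sources used here. Values are averages over all larval tissues, so strong binding in few cells and weak binding in many cannot be told apart.

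Glutathione transferases join the tripeptide glutathione to reactive compounds, which makes them easier to export. They act on plant toxins, insecticides and products of lipid oxidation. The delta (GstD) and epsilon (GstE) classes are the expanded insect classes and stand mostly in tandem arrays. The omega (GstO), sigma (GstS), theta (GstT) and zeta (GstZ) classes have relatives in many animals. Jra is the fly Jun protein, a subunit of the AP-1 transcription factor, which acts downstream of JNK, a kinase of the stress response. Several transferase genes, GstD1 among them, are textbook targets of another bZIP factor, the product of cnc, which is held in check by Keap1.

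The stretches of DNA behind the results on 3R, X and 3L are given here, 5′ to 3′ on the strand of the gene, from the dm6 assembly. Capitals mark matches to the motifs named below, with a TATA word marked only within 50 bp upstream of a TSS. The first pair are the 300 bases upstream of the TSS of GstD1 (chr3R:12369269-12369568, minus strand) and GstT4 (chrX:13404449-13404748, plus strand), which hold the summits of their peaks. In GstD1 the capitals are a TATA word, 26 bp upstream of the TSS, and GstT4 holds none of the motifs.
GstD1: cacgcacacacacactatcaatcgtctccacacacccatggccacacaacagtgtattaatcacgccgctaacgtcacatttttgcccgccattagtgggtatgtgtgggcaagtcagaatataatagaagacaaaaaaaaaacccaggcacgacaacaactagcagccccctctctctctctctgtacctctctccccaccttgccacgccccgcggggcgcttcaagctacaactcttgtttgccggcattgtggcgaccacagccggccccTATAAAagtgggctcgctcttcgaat
GstT4: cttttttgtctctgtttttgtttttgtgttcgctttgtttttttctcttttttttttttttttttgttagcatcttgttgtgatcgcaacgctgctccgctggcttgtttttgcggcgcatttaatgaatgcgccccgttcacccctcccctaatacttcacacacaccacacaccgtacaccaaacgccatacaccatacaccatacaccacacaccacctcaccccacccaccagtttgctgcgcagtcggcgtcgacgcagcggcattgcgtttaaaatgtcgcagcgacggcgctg

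The other 3 are windows reaching 50 bases either side of the summits of regions that held a motif. They are an AP-1 site in the intron of GstO3 (chr3L:8519430-8519530, plus strand), an antioxidant response element core upstream of GstD8 (chr3R:12379590-12379690, plus strand) and a DNA replication-related element (DRE) at GstZ1 (chr3R:9456571-9456671, minus strand).
GstO3: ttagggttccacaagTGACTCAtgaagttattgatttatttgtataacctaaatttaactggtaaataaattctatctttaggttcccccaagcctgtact
GstD8: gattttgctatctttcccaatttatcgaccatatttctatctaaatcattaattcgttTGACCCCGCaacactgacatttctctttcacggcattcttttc
GstZ1: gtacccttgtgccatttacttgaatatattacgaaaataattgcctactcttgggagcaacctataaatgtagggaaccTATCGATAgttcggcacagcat

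A gene was counted as clustered when it stood in a run of at least 3 members, each within 10 kb of the next. This gave 24 clustered genes in 3 runs and 11 scattered genes. The GstD run held 11 genes in 20849 bp on 3R (12364776 to 12385624, dm6). The GstE run held GstE1 to GstE10 in 13198 bp on 2R (18396638 to 18409835). The GstO run held 3 genes in 5982 bp on 3L (8518885 to 8524866), with se, an omega transferase gene that the rule leaves out, among them. The scattered genes were GstE11 to GstE14, GstS1, GstT1 to GstT4, GstZ1 and GstZ2, in which GstT1 and GstT2, and GstZ1 and GstZ2, are adjacent pairs. Clustered genes had a median length of 835 bp, and 22 of 24 had a single annotated transcription start site (TSS). Scattered genes had a median length of 1418 bp, and 6 of 11 had a single TSS. Sequence within 500 bp of a TSS was nearly unique in the genome for every member. The lowest share of stretches of 31 bases found once in the genome was 96.3%, at GstD2.

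The authors deposited 4 lists of bound regions that were used here. The shortest is the authors' list thresholded by the irreproducible discovery rate (IDR), which compares the ranks of peaks between replicates, and the longer ones are a pooled list and a list for each replicate. The IDR list held 3827 peaks, of which 3803 lay on the arms. Of the 3827 peaks, 3808 were also among the top 3827 regions of the pooled list. The IDR list was thus close to a cut on pooled signal, at 70.6. A peak on the IDR list need not rank high in each replicate, and 2628 of the 3803 overlapped the top 3827 regions of both. The pooled and replicate lists held 29999 or 30000 regions each and include background. Each region carries the authors' peak signal, and these signals are not on a common scale between lists. The lists hold no read counts, so the depth behind each value is unknown.

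Of the 35 genes, 6 had an IDR summit within 1000 bp of a TSS. They were GstE13, GstT4, GstD1, GstS1, GstE3 and GstO3, each with 1 peak and none shared between members. The share of 17.1% (95% Clopper-Pearson interval 6.56% to 33.6%, counting error over genes only) lay near the 20.4% of all protein-coding genes. With windows of 250 and 500 bp the count was 5 in each case, against 15.0% and 17.9% of all genes. It was 6 with each summit given to the nearest TSS alone (15.0% of all genes), 4 with a TSS required inside the region (13.0%) and 3 in the upper 50% of IDR peaks by signal (12.1%). With 1000 bp, it was 3 of 24 clustered genes (12.5%, interval 2.66% to 32.4%) and 3 of 11 scattered genes (27.3%, interval 6.02% to 61.0%). These intervals treat genes as independent, so they were not used to compare the 2 groups. No test was made between clustered and scattered genes, because neighbours can lie within reach of the same summit. By class, the peaks fell to 1 of 11 delta genes, 2 of 14 epsilon, 1 of 3 omega, the only sigma gene, 1 of 4 theta and neither of the 2 zeta genes.

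GstE13, a scattered epsilon gene on 2R (9122125 to 9123309), had the strongest peak of the family. Its signal was 527 (rank 50 of 3827), with 331 in replicate 1 (rank 29) and 197 in replicate 3 (rank 72). The region spanned 326 bp (9122043 to 9122368), and its summit lay in the 5′ UTR, 70 bp downstream of the nearest TSS. Of all protein-coding genes, 0.215% had a pooled region of that signal or more within 1000 bp of a TSS. The nearest TSS of any other gene, that of Su(var)2-10, lay 5577 bp from the summit. The other 5 peaks of the family had signals of 72.0 to 130.

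GstT4, a theta class gene on X (13404749 to 13409323), had the next peak, of signal 130 (rank 1268). Its values were 65.0 in replicate 1 (rank 1695) and 60.4 in replicate 3 (rank 1329). The region was narrow, at 150 bp, and its summit lay 230 bp upstream of the TSS. It falls just after the long run of T in the GstT4 sequence printed earlier.

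GstD1 encodes a delta enzyme known for breaking down DDT, and its promoter is widely used to report oxidative stress. Its peak had a signal of 118 (rank 1499), with 80.0 in replicate 1 (rank 1122) and 46.1 in replicate 3 (rank 2294). The summit lay 154 bp upstream of the TSS, in the stretch that separates GstD1 from GstD2. No other gene of the GstD run had an IDR peak within 1000 bp of a TSS. Their strongest pooled regions had signals of 19.7 to 41.6.

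GstS1, the sigma class gene, encodes an enzyme that conjugates a product of lipid peroxidation and is abundant in flight muscle of the adult fly. Its peak, 26 bp downstream of a TSS in the 5′ UTR, had a signal of 82.9 (rank 2878). The replicates differed in place and rank. In replicate 1 the signal was 67.8 (rank 1564). In replicate 3 the strongest region that overlapped the peak had 22.4 (rank 8408), and the one that covered at least 50% of it had 12.4 (rank 19786). In the top 3827 regions of replicate 3 alone, GstS1 was not among the genes with a promoter region.

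GstE3 was the single gene of the GstE run with an IDR peak. The signal was 82.2 (rank 2929), with 48.1 in replicate 1 (rank 2924) and 37.4 in replicate 3 (rank 3498). The summit lay 196 bp upstream of the TSS, between GstE2 and GstE3.

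At GstO3 the peak had a signal of 72.0 (rank 3695), close to the lowest signal of the nuclear IDR peaks, 70.6. Its values were 30.4 in replicate 1 (rank 6072) and 37.8 in replicate 3 (rank 3421), so it was outside the top 3827 regions of replicate 1. The summit lay in an intron, 595 bp downstream of the TSS and 1072 bp from that of se. A second pooled region lay 61 bp upstream of the GstO3 TSS with a signal of 67.9, just below that minimum. The peaks at GstE13, GstT4, GstD1 and GstE3 overlapped the top 3827 regions of both replicates, and those at GstS1 and GstO3 did so in 1 replicate each. These 4 genes are 11.4% of the family, against 14.9% of all protein-coding genes.

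**Figure D1:**
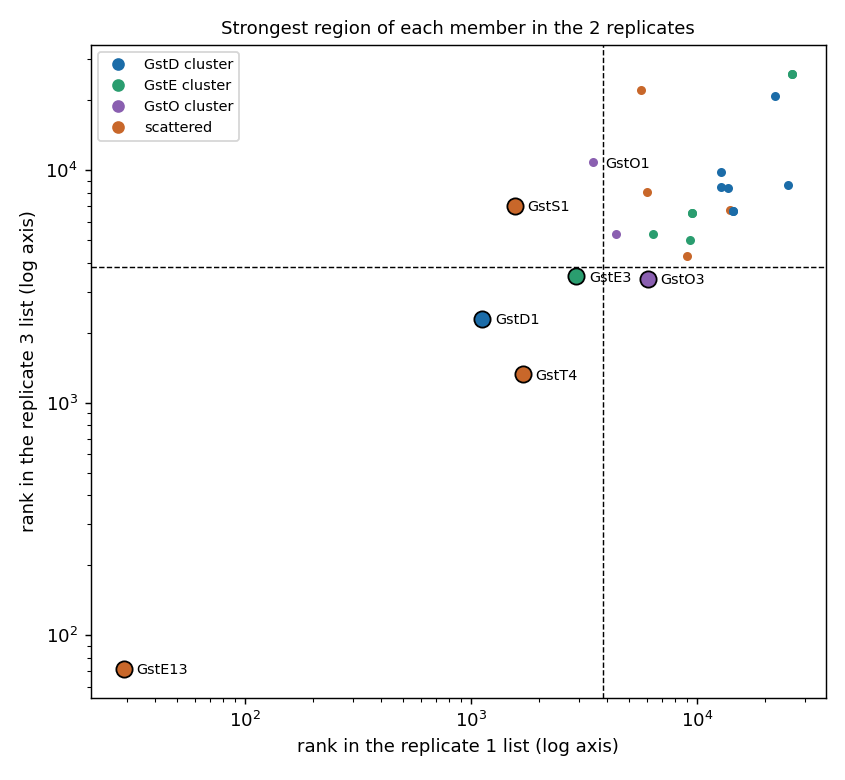
Rank of the strongest region within 1000 bp of a TSS in the replicate 1 list (x axis, log scale) and in the replicate 3 list (y axis, log scale), for the 25 members with a region in both lists. Large outlined points are members with an IDR peak and dashed lines mark rank 3827. GstE13, at ranks 29 and 72, stands apart from the other members. GstS1, GstO3 and GstO1, the last without an IDR peak, lie within the top 3827 of a single replicate.

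Regions below the IDR list were common at these genes. A pooled region lay within 1000 bp of a TSS at 30 of 35 members (85.7%, Clopper-Pearson interval 69.7% to 95.2%), against 48.9% of all protein-coding genes. That interval treats genes as independent, although some neighbours shared a region. The count was 21 of 24 clustered and 9 of 11 scattered genes. A pooled region without an IDR peak stood at 24 of 35 members (68.6%), against 28.6% of all genes. The median over members of the strongest pooled signal was 41.6, and over all protein-coding genes it was 0, with genes without a region set to 0. Among the 5892 protein-coding genes in the length range of the clustered members (725 to 2289 bp), 39.6% had a pooled region and 15.6% an IDR peak. Among the 6665 longer genes, 60.4% had a pooled region and 27.3% an IDR peak. The part of gene length in the members' share was not tested. Control libraries were not analysed here, so the part of open chromatin or input signal in these weak regions was not tested.

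The same lists gave a region in replicate 1 at 25 of 35 members (71.4%, against 52.7% of all genes) and in replicate 3 at 32 (91.4%, against 51.0%). A region in each replicate list stood at 25 members (71.4%, against 43.9%), and so did a region in the pooled list and in each replicate list (71.4%, against 41.9%). Within 500 bp, 26 members had a pooled region (74.3%, against 42.8%). Of the strongest pooled regions at the 30 members, replicate 1 listed an overlapping region for 25 and replicate 3 for 28, and 24 were overlapped in both. Some summits counted for several neighbours. The 30 members were reached by 38 distinct pooled regions, 6 of which lay within 1000 bp of more than 1 member, in the GstD and GstE runs. With each summit given to its nearest protein-coding TSS alone, 25 of 35 members kept a pooled region (71.4%, against 42.1% of all genes), 16 of 24 clustered and 9 of 11 scattered.

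**Figure D2:**
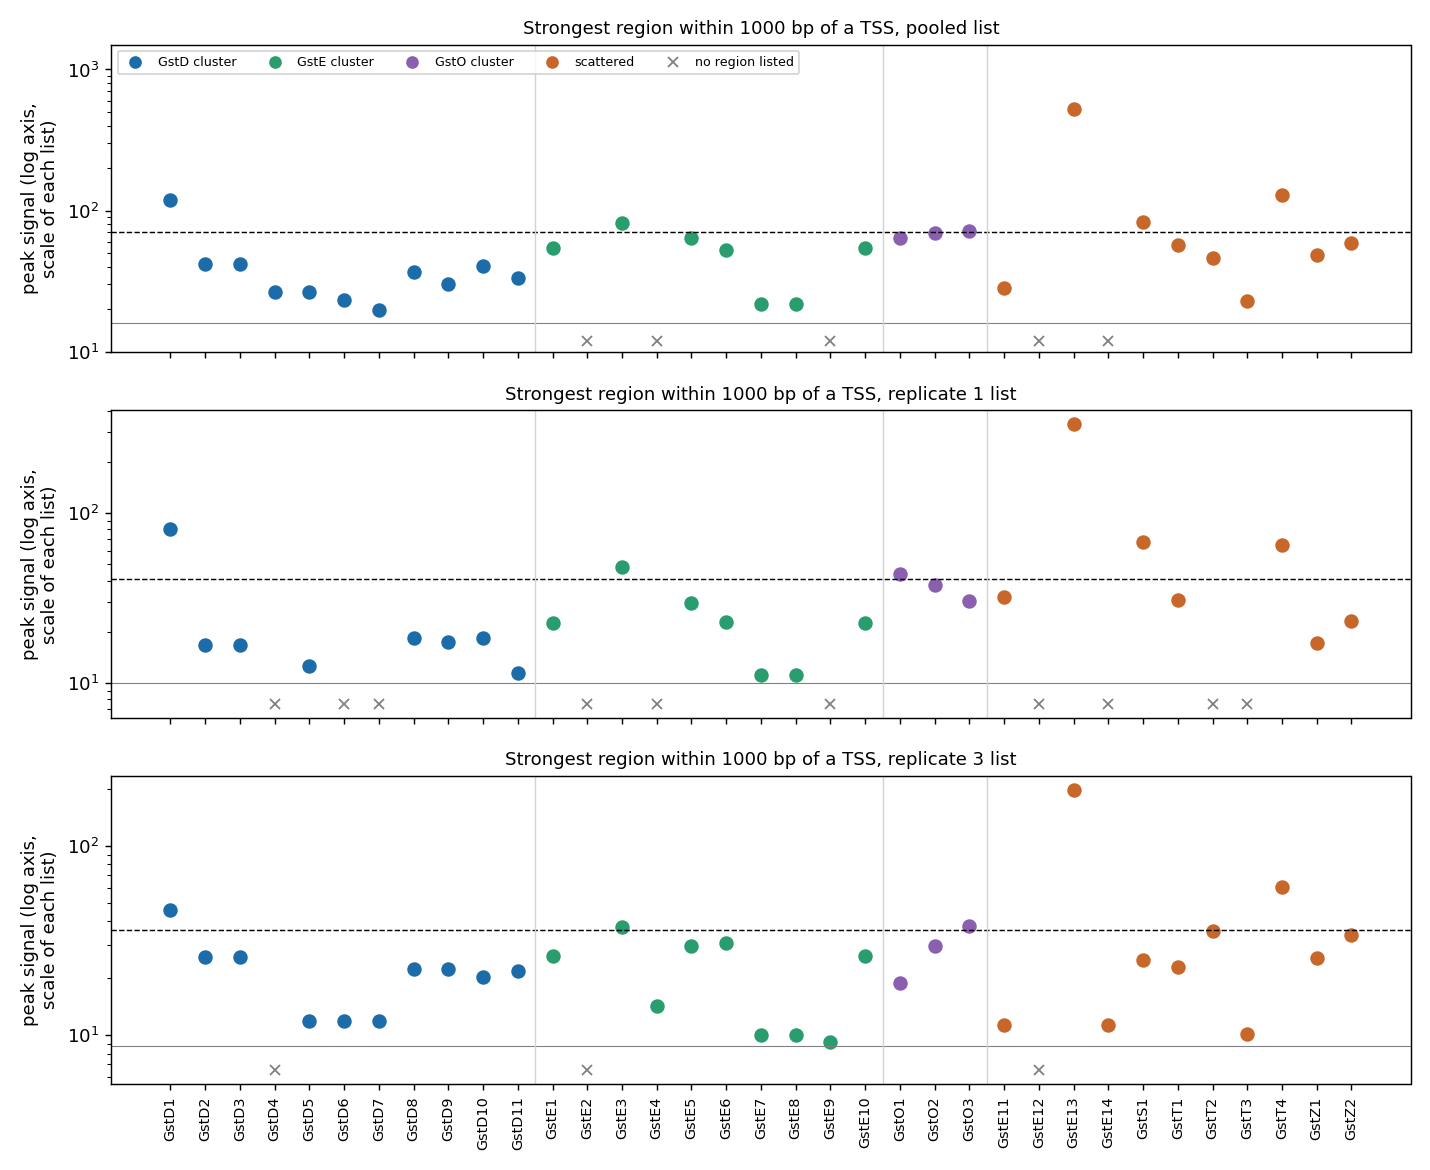
Peak signal (y axis, log scale, each list on its own scale) of the strongest region within 1000 bp of a TSS for each of the 35 members, in the pooled, replicate 1 and replicate 3 lists. The dashed line marks the signal at rank 3827 of each list, the grey line its lowest signal, and crosses are members with no region. GstE13 and GstT4 are the highest in the pooled list, GstD1 exceeds its 10 neighbours in each list, and GstE2 and GstE12 have no region in any list.

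In the GstD run every gene had a pooled region within reach, and the signals fell into a strong one at GstD1 and weak ones elsewhere. GstD2 and GstD3 shared a region of signal 41.6, 169 bp upstream of GstD3, with 16.8 in replicate 1 and 25.9 in replicate 3. GstD10 had 40.4 (18.3 in replicate 1 and 20.3 in replicate 3), GstD11 33.5 (11.4 and 21.9) and GstD9 30.2 (17.4 and 22.4). GstD8 had 36.6, with 22.3 in replicate 3 and no overlapping region in replicate 1. Replicate 1 listed another region there, of 18.4, 878 bp downstream of the TSS, where the pooled list had 27.7. These pooled signals lie between the median signal of the pooled list, 27.3, and the IDR minimum. GstD4 and GstD5 shared a region of 26.5, which lay exactly 1000 bp downstream of the GstD4 TSS, with 12.6 in replicate 1 and 11.9 in replicate 3. The summits of those replicate regions lay beyond the window of GstD4, which had no region of its own in either replicate list. The region at GstD6, of 23.3, was overlapped in neither replicate, and that at GstD7, of 19.7, by a region of 11.9 in replicate 3 alone.

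In the GstE run the strongest pooled regions after GstE3 were at GstE5, with 63.5 (29.5 in replicate 1 and 29.7 in replicate 3), and at GstE1 and GstE10, which overlap at their 5′ ends and shared a region of 54.0 (22.5 and 26.3). GstE6 had 52.6 (22.7 and 30.7). GstE7 and GstE8 were reached by 1 region of 21.9, 82 bp upstream of GstE7, with 11.1 in replicate 1 and 9.99 in replicate 3. No pooled region lay within 1000 bp of GstE2, GstE4 or GstE9. Replicate 3 alone listed weak regions at GstE4 (14.3) and GstE9 (9.23).

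The 3 omega genes had much the same pooled signal, 72.0 at GstO3, 69.0 at GstO2 and 64.0 at GstO1. The replicates ordered them differently. In replicate 1 the signals were 30.4, 37.6 and 43.6, and in replicate 3 they were 37.8, 29.8 and 18.9, in the same order of genes. With replicate 1 alone GstO1 in place of GstO3 was in the top 3827 regions. The region counted for GstO1 lay 353 bp upstream of it but 25 bp from the TSS of foi, a zinc transporter gene. The sepia gene se, whose enzyme makes a red eye pigment precursor, had no pooled region within 1000 bp of a TSS.

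**Figure D3:**
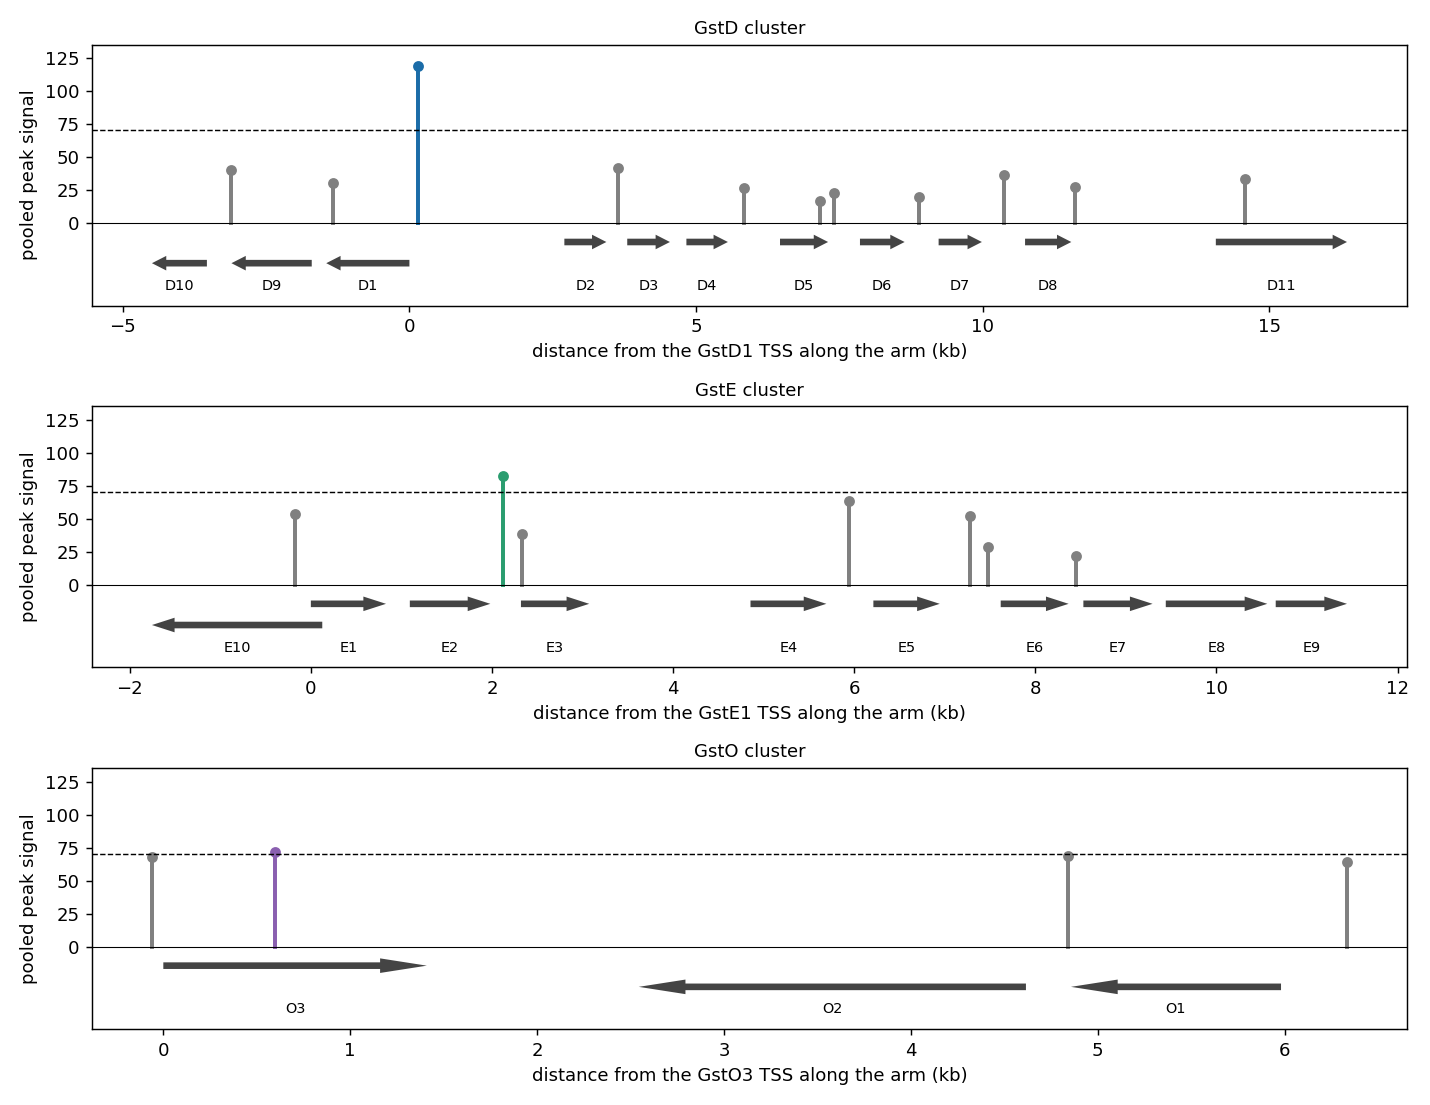
Pooled peak signal (y axis) of each region within 1000 bp of a member TSS along the GstD, GstE and GstO runs, with genes as arrows in the direction of transcription and the distance along the arm from the TSS of GstD1, GstE1 and GstO3 (x axis, kb). Coloured stems are IDR peaks, grey stems are other pooled regions and the dashed line is the lowest nuclear IDR signal, 70.6. A single coloured stem stands in each run, and the GstO stems lie close to the line.

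Among scattered genes the regions ranged from the family's strongest to none. The zeta genes encode maleylacetoacetate isomerases of tyrosine breakdown. GstZ2 had a pooled signal of 59.3 (23.3 in replicate 1 and 33.7 in replicate 3) and GstZ1 one of 48.6 (17.2 and 25.7). The theta genes GstT1 and GstT2 had 56.9 and 46.3. GstT1 was listed in both replicates, at 30.7 and 23.0. GstT2 had no region in replicate 1 and 35.4 in replicate 3 (rank 3929). GstT3 had 22.9, also with no region in replicate 1. GstE11 had 28.1, with 31.8 in replicate 1 and no overlapping region in replicate 3. Replicate 3 listed another region there, of 11.4, 213 bp upstream of the TSS. GstE14, which encodes an enzyme needed for ecdysone synthesis, had a region in replicate 3 alone (11.4), and GstE12 had none in any list.

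**Figure D4:**
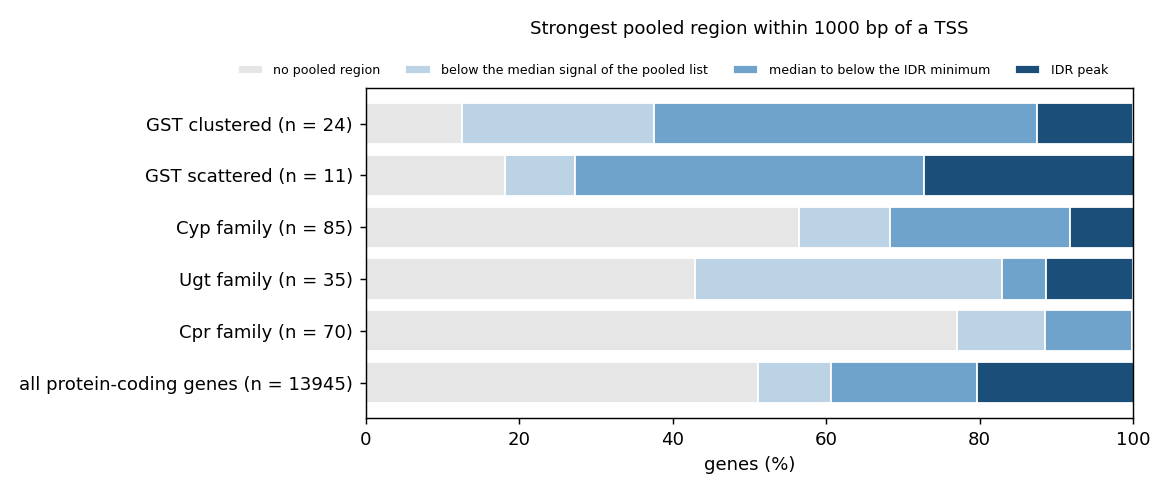
Share of genes (x axis, percent) by the strongest pooled region within 1000 bp of a TSS, for clustered and scattered transferase genes, 3 other families and all protein-coding genes. Signals from the list median of 27.3 to below 70.6 are held by 12 of 24 clustered and 5 of 11 scattered transferase genes and by 19.0% of all genes.

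The position of the strongest region relative to the TSS depended on the list. In the pooled list its summit was upstream of the nearest TSS at 17 of 21 clustered genes, with a median position 273 bp upstream, and within 100 bp of the TSS at 1 of them (4.76%). At scattered genes it was upstream at 4 of 9, with a median position 4 bp downstream, and within 100 bp at 6 of 9 (66.7%). Over the 6826 protein-coding genes with a pooled region, 72.6% were upstream, the median was 115 bp upstream and 29.8% lay within 100 bp. Replicate 1 gave 3 of 7 scattered genes upstream, with a median 22 bp downstream and 4 within 100 bp. Over all genes with a replicate 1 region, 71.7% were upstream and 32.1% lay within 100 bp. In replicate 3 it was 7 of 10 (70.0%, against 72.6% of all genes), with a median 157 bp upstream and 3 of 10 within 100 bp (against 26.1% of all genes). The placing of scattered genes close to the TSS was therefore not seen in replicate 3. Each position is to the nearest of a gene's TSSs, and scattered genes had 19 TSSs for 11 genes, clustered genes 26 for 24. At GstZ2, with 3 TSSs, the summit was 724 bp downstream of a TSS in the pooled list. In replicate 3 it was 671 bp upstream of another TSS. Clustered genes had 13 of 18 upstream in replicate 1 (72.2%, against 71.7% of all genes) and 18 of 22 in replicate 3 (81.8%, against 72.6%). Their upstream share was thus near that of all genes in replicate 1. Within 100 bp lay 2 in each replicate (11.1%, against 32.1%, in replicate 1 and 9.09%, against 26.1%, in replicate 3). In the pooled list the regions counted for GstD2, GstD4, GstE8, GstE10 and GstO1 lay nearer to the TSS of another gene. With each summit given to its nearest protein-coding TSS alone, 16 of 24 clustered and 9 of 11 scattered genes kept a pooled region. Positions were not recounted under that rule. The replicate lists were added after the pooled values had been seen, and no difference was tested.

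**Figure D5:**
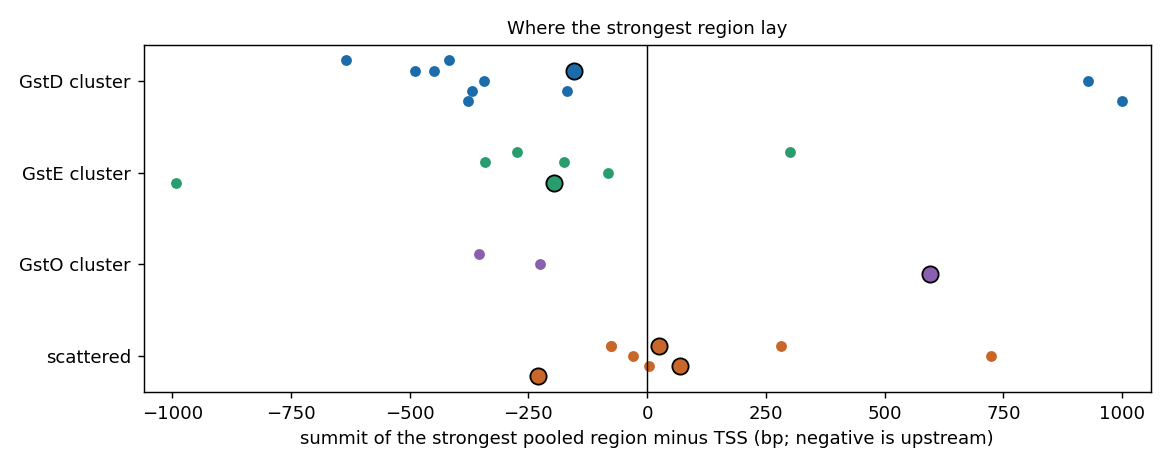
Position of the summit of the strongest pooled region relative to the nearest TSS of the same gene (x axis, bp, negative upstream) for the 30 members with a region, by run. Outlined points are IDR peaks. The points of GstD2, GstD4, GstE8, GstE10 and GstO1 are regions nearer to the TSS of another gene. Points of the GstD run lie 154 bp or more from the TSS, and 6 of the 9 scattered genes lie within 100 bp, which in the replicate 3 list became 31 bp or more and 3 of 10.

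The sequence up to 50 bp either side of a summit was searched for motifs in both directions. The AP-1 site TGACTCA was found at 1 of the 6 IDR peaks, that of GstO3, where it began 35 bases before the summit. Of all 3803 nuclear IDR peaks, 4.08% held it. Among all 38 pooled regions at members, 2 held it (5.26%), at GstO3 and at GstE5, against 1.94% of 11154 pooled regions at promoters of any protein-coding gene. The antioxidant response element core TGACNNNGC is the site of the cnc product with its Maf partner. It lay within 50 bp of no IDR summit of the family (2.84% of all IDR peaks). At GstE3, however, it lay within 50 bp of the replicate 1 summit, which was 86 bp upstream of the TSS. Among the pooled regions the core was at 1, 8 bases after the summit at GstD8 (2.63%, against 2.78%). The DRE, TATCGATA, was at none of the 6 (3.23% of all IDR peaks) and at 1 of 38 regions, that of GstZ1 (2.63%, against 2.48%). The cyclic AMP response element TGACGTCA was at none (0.341% of promoter regions). The GATA word AGATAAG was at the region shared by GstE6, GstE7 and GstE8 (2.63%, against 1.73%), and the FOXO word GTAAACA at the GstE3 peak (2.63%, against 3.59%). Besides the core at GstE3, replicate summits held further matches that the pooled summits did not. In replicate 1 these were an AP-1 site at a region 332 bp upstream of GstD2 (signal 12.5) and a GATA word at GstO2. In replicate 3 they were a DRE at the region counted for GstO1 and a FOXO word at GstT1. Shares over all replicate regions were not computed. An AP-1 site followed by GC also matches the antioxidant core, so these motifs can overlap.

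In windows from 250 bases before to 50 after each TSS, the AP-1 site stood at GstE2, GstE9 and an internal TSS of GstE10, that is at 3 of 45 member TSSs (6.67%) against 2.59% of 19253 TSSs of protein-coding genes. GstE2 and GstE9 are genes without a pooled region. The antioxidant core stood at GstE3, GstE10 and GstZ2 (6.67%, against 8.81%), and the DRE at GstO1 and GstZ1 (4.44%, against 7.98%). The GATA word stood at GstD5, GstE7, GstO2 and GstT3 (8.89%, against 4.56%) and the FOXO word at GstE1 and GstE3 (4.44%, against 8.87%). The cyclic AMP response element was at no member TSS (0.556% of all). A TATA word, TATAAA on the strand of the gene within 50 bp upstream, was found at GstD1, GstD5, GstD8, GstD10, GstE3, GstE7, GstO3 and GstS1. That was 7 of 26 TSSs of clustered genes (26.9%) and 1 of 19 of scattered genes (5.26%), against 9.33% of all TSSs. This search was added after the sequences had been seen.

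A further list joined genes of glutathione supply and regulators with transporter genes and a nuclear receptor gene. Promoter peaks stood at 5 of its 14 genes (35.7%, against 20.4% of all protein-coding genes). Keap1, cnc and ERR had 2 peaks each, of which the stronger is given. At Keap1 it had a signal of 187 (105 in replicate 1 and 82.7 in replicate 3), and at cnc it had 110 (69.9 and 40.6). ERR, a nuclear receptor gene, had 209 (124 and 91.1). MRP, a transporter gene, had 175 (106 and 85.9), and Pgd, a gene for an enzyme that makes NADPH, 75.5 (44.8 and 29.1). The genes of glutathione synthesis, Gclc, Gclm, Gss1 and Gss2, and maf-S had no IDR promoter peak. Of 6 further genes with a transferase fold or activity (se, Mgstl, gfzf, Gdap1, eEF1gamma and Clic), Clic had one, of signal 75.9 (16.7% of the list). Of 10 superoxide dismutase, catalase and peroxidase genes, Sod2 (130), Cat (106), Prx5 (87.4) and Prx4 (76.0) had one (40.0% of the list). These lists are short, and no test was made of their shares against the 20.4%.

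Other families that stand partly in tandem arrays were set beside the transferases. An IDR promoter peak stood at 7 of 85 Cyp genes (8.24%), which encode cytochrome P450 enzymes, at 4 of 35 Ugt genes (11.4%), for UDP-glycosyltransferases, and at none of 70 Cpr cuticle protein genes. Over all protein-coding genes the share was 20.4%. A pooled region stood at 43.5%, 57.1% and 22.9% of these families, against 85.7% of the transferase genes and 48.9% of all protein-coding genes. Differences between families were not tested.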

How the data were processed

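Peak lists on genome build dm6 were used. The signal of each region is the value deposited by the authors, as their peak caller gave it. Per the notes that accompany the deposited files, each replicate list was derived from that replicate's alignments and 1 further file, the pooled list from both alignments and that file, and the IDR list from these 3 lists. The sources used here do not give the aligner, the peak caller or the IDR threshold. Lists on dm3 were not used. Gene models were from Ensembl release 115 and sequence from RefSeq Release 6, which is dm6; no region ended beyond its chromosome. Summits were column 2 plus column 10, written from 1. A gene was called when a summit lay within 1000 bp of any of its TSSs. For a replicate's value at an IDR peak or pooled region, the strongest region overlapping it by at least 1 bp was taken. Ranks are over whole lists. Analyses used Python 3.11.15 and scipy 1.17.1, and the gene assignment and motif search were tested on simulated data.

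Intervals are exact (Clopper-Pearson) and treat genes as independent, although neighbours can share a region. Alternatives changed the window, the summit rule, the peak threshold, the run definition, the overlap, the motif window and the replicates used. All 35 members are accounted for. The named genes are the members with an IDR promoter peak, the strongest pooled region of each run and class, and listed genes with an IDR peak. Members and lists were chosen with earlier results of these data known. With 1 group of 2 replicates there was no test between conditions. PHGPx and Jafrac2 were matched as Gtpx and Prx4.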

Additional observations from a re-analysis of the deposited data

How the results depend on the processing

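The count of 6 members with an IDR promoter peak was 5 or 6 with windows of 250 and 500 bp, with the nearest TSS alone and in the top regions of a single replicate (5 in replicate 3, without GstS1, against 20.4% of all genes; 6 in replicate 1, with GstO1 in place of GstO3, against 21.3%), 4 with the TSS required inside the region, and 9 with a window of 2000 bp. It fell to 3 (8.57%, against 12.1% of all genes) in the upper 50% of nuclear IDR peaks by signal. Clustered genes had 3, which became 6 of 24 with 2000 bp, when 24.5% of all genes were counted, and 1 in the upper 50% of peaks. With 2000 bp, GstE2, GstE10 and GstD9 were reached by the peaks of their neighbours. Scattered genes stayed at 3 of 11 there, so the gap between the shares nearly closed at that window. With windows of 250 and 500 bp the gap remained, at 2 of 24 clustered and 3 of 11 scattered genes in each case. The clustered share was also the lower one in the other alternatives on peaks, replicates and run definition. These counts are small, and the gap was not tested. Scattered genes had 2 or 3 of 11 in the alternatives run on the peak lists and windows. Gaps of 5 and 50 kb left the runs as they were, and runs of at least 2 members gave 3 of 28 clustered and 3 of 7 scattered. The AP-1 site at GstO3 lay outside a window of 25 bp, where the count was 0. Scattered genes with the strongest summit within 100 bp of a TSS numbered 6 of 9 in the pooled list, 4 of 7 without replicate 3 and 3 of 10 without replicate 1. The pooled count was 30, and 25 with a region in both replicates too, an alternative chosen after seeing the data. No paired analysis was possible because there was 1 group. Depth is unknown, and 2 replicates limit the precision.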
